A study of Rattus norvegicus with 12 samples.

Results

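The genes described here fold proteins in the endoplasmic reticulum (ER) and carry the unfolded protein response, the signalling that adjusts this folding capacity. The set was a list of 34 gene symbols, chosen by name and not by level, though with earlier results of these data known. Of these, 33 were found among the 25888 symbols of the deposited count table and all 33 had enough counts to be tested. The remaining member, Syvn1, was not analysed here. A gene with more than 1 listed transcript is represented by its most abundant one, by mean count.

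The samples were islets isolated from the pancreas of Sprague Dawley rats, 3 RNA libraries in each of 4 groups. The IUGR rats at 10 weeks of age and at 2 weeks of age were born to dams in which both uterine arteries were tied at embryonic day 18, which restricts fetal growth (IUGR, intrauterine growth restriction). The control rats at 10 weeks and at 2 weeks came from litters culled to 8 pups, and the labels describe no operation of their dams. Islets of all groups were freed by ductal collagenase and a Histopaque gradient, and RNA with an integrity number above 7 was made into stranded, ribosomal RNA-depleted libraries. Neither the sex of the rats nor any pooling of animals is stated. P-values therefore measure the spread between these libraries, which may be narrower than that between litters.

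Secretory cells send their products through the ER, where chaperones hold unfolded chains, disulfide isomerases form and rearrange disulfide bonds, and oxidases re-oxidise the isomerases. When unfolded protein accumulates, the sensors IRE1, PERK and ATF6 raise chaperones and degradation factors, slow translation and, when the load persists, induce pro-apoptotic factors. Both the insulin-producing beta cells and the enzyme-producing acinar cells that surround islets make large amounts of secreted protein and express these genes strongly.

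The promoters of several members carry the ER stress response element (ERSE), bound by ATF6 and XBP1. It reads CCAAT, any 9 bases, CCACG. RefSeq promoters of the rat assembly GRCr8, 250 bases before to 50 bases after a gene's start, were matched to 27 of the 34 members (Ero1lb under its current symbol Ero1b). Manf, Pdia3, Pdia6, Ero1l, Ern1, Atf6 and Derl1 had no match. ERSE was found on either strand in 9 of the 27 member genes (33.3%), against 22 of 33469 promoters in the whole table (0.0657%), 13 of which belonged to other genes. The windows below are given 5′ to 3′ on the strand of the gene because they hold these elements. Capitals mark the ends of the element. Where it lies on the opposite strand, they read CGTGG and ATTGG.
Hspa5, chr3:38452953-38453011, plus strand: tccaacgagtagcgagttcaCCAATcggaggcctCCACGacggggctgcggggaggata
Hsp90b1, chr7:23012431-23012489, minus strand: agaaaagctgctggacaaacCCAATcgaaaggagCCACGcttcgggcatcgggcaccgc
Hsp90b1, second element, chr7:23012327-23012385, minus strand: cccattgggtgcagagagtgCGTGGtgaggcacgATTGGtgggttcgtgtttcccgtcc
Calr, chr19:40213117-40213173, plus strand: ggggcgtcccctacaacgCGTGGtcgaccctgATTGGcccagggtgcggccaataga
Canx, chr10:35158049-35158107, minus strand: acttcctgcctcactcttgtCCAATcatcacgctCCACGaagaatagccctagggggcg
Dnajc3, chr15:102432514-102432572, plus strand: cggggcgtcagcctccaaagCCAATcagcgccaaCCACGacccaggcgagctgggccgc
Creld2, chr7:121789219-121789277, plus strand: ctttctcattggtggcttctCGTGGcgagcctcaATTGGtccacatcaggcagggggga
Ero1lb, chr17:92941438-92941496, plus strand: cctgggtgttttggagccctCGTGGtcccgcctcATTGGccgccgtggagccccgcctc
Xbp1, chr14:84604538-84604596, plus strand: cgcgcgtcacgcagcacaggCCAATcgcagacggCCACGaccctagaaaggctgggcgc
Derl3, chr20:12766581-12766639, minus strand: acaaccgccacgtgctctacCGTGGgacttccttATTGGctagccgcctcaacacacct

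A related element, ERSE-II (ATTGG, any 1 base, CCACG), was found in 17 promoters (0.0508%), 3 of them of members: Hyou1, Dnajb11 and Herpud1. The XBP1 motif TGACGTGG was in 199 promoters (0.595%), and Hyou1 was the member among them, where it overlapped the first ERSE-II printed below. The ATF4 motif TGATGNAA was in 1332 promoters (3.98%), of which Trib3 and Herpud1 were members. Such a match is a description of the letters and no evidence of binding. The windows of Hyou1, Herpud1 and Trib3 are shown because these 3 genes return below as genes that differed at 10 weeks, a choice made with their values known. Capitals mark the element on either strand.
Hyou1, ERSE-II, chr8:53602674-53602724, plus strand: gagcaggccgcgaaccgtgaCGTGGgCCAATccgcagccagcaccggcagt
Hyou1, second ERSE-II, chr8:53602774-53602824, plus strand: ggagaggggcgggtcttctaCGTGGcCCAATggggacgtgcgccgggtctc
Herpud1, ERSE-II, chr19:10614801-10614851, minus strand: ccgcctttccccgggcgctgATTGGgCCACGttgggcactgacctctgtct
Trib3, ATF4 motif, chr3:161275527-161275574, minus strand: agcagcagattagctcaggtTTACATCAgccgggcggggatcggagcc

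The libraries held between 30.4 and 64.2 M (mega) counts. The members averaged between 88.3 counts per library (Trib3, whose lowest library had 37) and 44023 (Hspa5). The libraries differed in acinar RNA. The 35 acinar genes found took 1.26%, 2.32% and 0.624% of counts in IUGR libraries 1 to 3 at 10 weeks, against 43.0%, 13.9% and 46.9% in the 10-week controls. At 2 weeks they took 6.34%, 4.38% and 9.39% in IUGR libraries, against 42.4%, 22.6% and 21.7% in controls. Levels are given as CPM, counts per 1000000 library counts, with library sizes scaled by TMM factors unless stated otherwise. The factors were 0.492, 1.07 and 0.440 in control libraries 1 to 3 at 10 weeks and 1.18, 1.18 and 1.16 in IUGR libraries. At 2 weeks they were 0.771, 1.15 and 1.15 in controls and 1.38, 1.40 and 1.36 in IUGR libraries. A smaller factor gives a higher CPM for the same share of counts. Statements on overlap of single members hold for these scaled levels, and unscaled ones are not given. The summed level of 9 beta cell genes was 176369 to 190868 CPM in IUGR libraries at 10 weeks and 94066 to 141581 CPM in controls. At 2 weeks these sums overlapped, at 33888 to 38314 CPM in IUGR libraries and 21929 to 38490 CPM in controls. At 10 weeks 34 of 35 acinar, 6 of 8 stromal and 5 of 6 endothelial genes were lower in IUGR islets. The same held for 1 of 6 ductal and 1 of 6 macrophage genes, near the 15.5% of all transcripts called lower. Of 9 beta cell genes 4 were higher, and of 8 other endocrine genes 3, beside 12.4% of all transcripts. At 2 weeks 5 acinar genes were lower, and 1 other endocrine and 1 stromal gene were higher, beside 2.21% and 1.66% of all transcripts. The part of these cell types in the members' differences was not tested. No marker of any of these lists was at 0 in every library of a group. In such bulk RNA, fewer cells of a type and less RNA per cell cannot be told apart.

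Taken over the whole set, the members made up 1.24% ± 0.0413 (SD, n = 3) of the counts outside the acinar list in IUGR islets at 10 weeks. In controls of that age the share was 0.804% ± 0.0846 (SD, n = 3). All 3 IUGR libraries, the lowest at 1.2% and the highest at 1.27%, lay above all 3 controls, between 0.717% and 0.886%. As TMM-scaled sums over the members, the groups overlapped at 10 weeks. These sums were 9989 to 10821 CPM in IUGR libraries and 6487 to 10279 CPM in controls. At 2 weeks the shares were 0.680% ± 0.0483 in IUGR islets and 0.745% ± 0.119 in controls (SD, n = 3 each), and the groups overlapped.

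**Figure D1:**
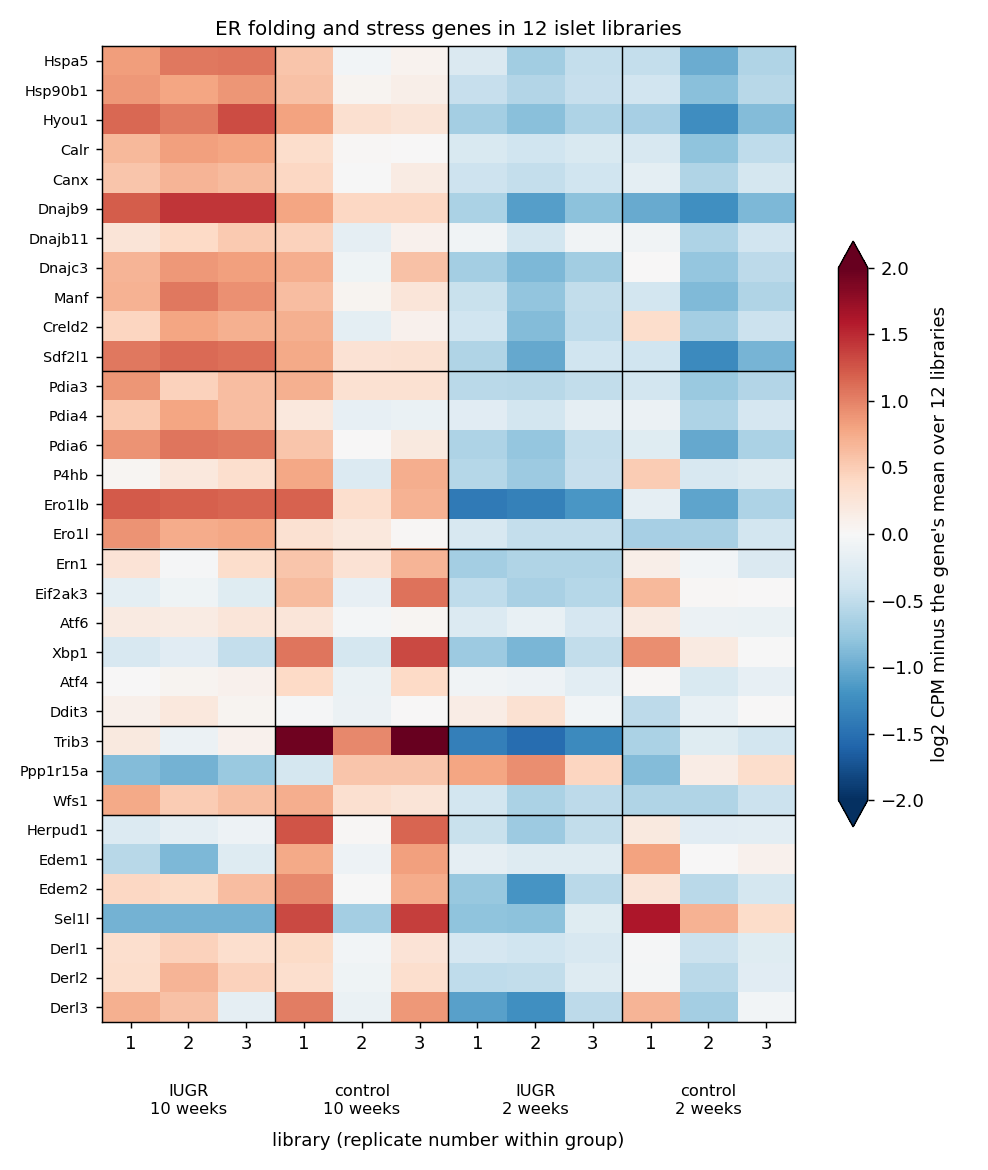
Level of each member in each library, as log2 CPM minus that gene's mean over the 12 libraries; colours are capped at 2 in either direction, and horizontal lines part the 5 roles. Hspa5, Hsp90b1, Hyou1, Calr, Pdia4 and Pdia6 were highest in the 3 IUGR libraries at 10 weeks, while Xbp1, Trib3, Herpud1 and Sel1l were highest in control libraries 1 and 3 at 10 weeks or, for Sel1l, in control library 1 at 2 weeks.

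At 10 weeks some of the folding genes were higher in IUGR islets and some of the signalling and degradation genes lower. Of 33 members, 9 were higher and 7 lower than in controls by edgeR's quasi-likelihood test at an adjusted p under 0.05, while 12.4% and 15.5% of all 20733 transcripts were called higher and lower. All 9 that rose were chaperones or disulfide enzymes, 6 of 11 chaperones and 3 of 6 isomerases and oxidases, and none of these 17 fell. All 7 that fell were sensors, feedback regulators or degradation factors, namely 2 of 6, 2 of 3 and 3 of 7. None of these 16 rose, and 9 of them did not pass. The members and their roles were chosen with earlier results of these data known. The split by role is therefore a description and not independent support. Of the 7 lower calls, those of Trib3 and Ppp1r15a were left when control libraries 1 and 3, rich in acinar RNA, were left out. Among the 17 no member was lower at an unadjusted p under 0.05 and among the 16 none was higher, and DESeq2 called 0 in those directions. The median log2 fold change, IUGR over control, was 0.57 over the chaperones, 0.52 over the isomerases and oxidases, -0.25 over the sensors, -1.16 over the feedback regulators and -0.25 over the degradation genes. Over all transcripts tested it was -0.01.

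**Figure D2:**
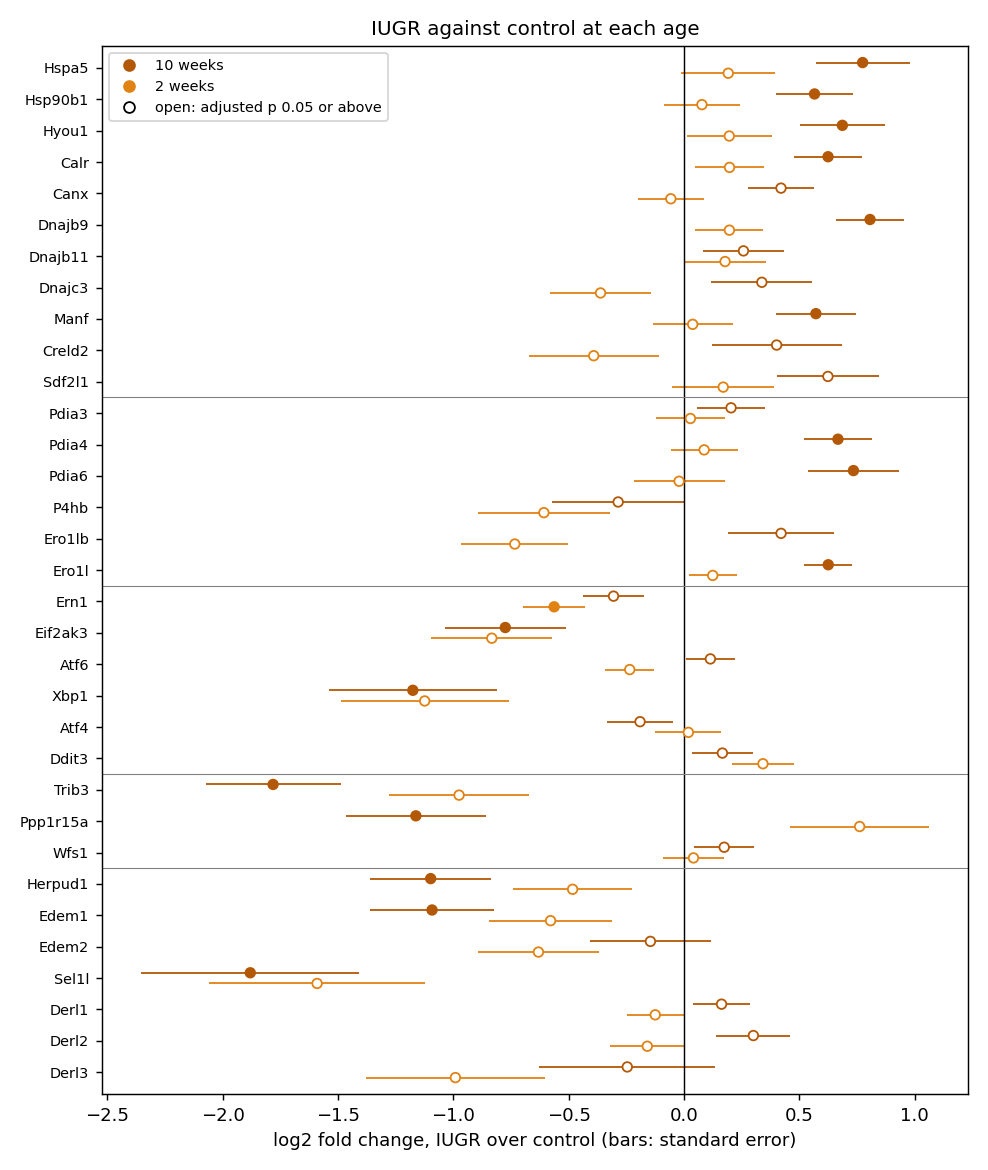
Log2 fold change of IUGR over control for each member at 10 weeks (brown) and at 2 weeks (orange), with standard errors; filled points passed an adjusted p under 0.05. At 10 weeks the filled points of the chaperones and isomerases lie between 0.57 and 0.81, and those of the lower groups between -1.88 and -0.78.

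Among the chaperones, Hspa5 encodes BiP, the main Hsp70-type chaperone of the ER, which also holds the stress sensors inactive. It measured 1639, 1917 and 1929 CPM in IUGR libraries 1 to 3 at 10 weeks, against 1348, 890.1 and 969.6 CPM in controls. Every IUGR library was above every control. Its log2 fold change was 0.77 ± 0.20 (SE; 1.71-fold, adjusted p = 0.0186). Dnajb9 (ERdj4), a cochaperone of BiP and a classical XBP1 target, had the largest log2 fold change among the members that rose. Its levels were 188 to 219.6 CPM in IUGR libraries and 109 to 141 CPM in controls, with no overlap, and the log2 fold change was 0.81 ± 0.15 (1.75-fold, adjusted p = 0.00427).

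Hyou1, an Hsp110-type exchange factor that recharges BiP, averaged 1089 ± 102 CPM in IUGR islets and 677 ± 149 CPM in controls (SD, n = 3 each), a log2 fold change of 0.69 ± 0.19 (adjusted p = 0.0206). Hsp90b1 (GRP94), the Hsp90 of the ER, was higher by 0.57 ± 0.17 on the log2 scale (adjusted p = 0.0285). Calr, the lectin chaperone calreticulin, was higher by 0.62 ± 0.15 (adjusted p = 0.012). Manf, a secreted and ER-resident factor that protects beta cells in mice, was higher by 0.57 ± 0.17 (adjusted p = 0.0316). In all 4 genes the groups did not overlap. Full separation of 3 from 3 libraries, here and below, corresponds to a two-sided exact p no lower than 0.10. The share of all transcripts so separated was not counted.

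The remaining 5 chaperones had log2 fold changes above 0 but did not pass. Canx, the membrane-bound lectin chaperone calnexin, lay at the threshold, with 849, 932 and 900.2 CPM in IUGR libraries against 776, 575 and 652 CPM in controls. Its log2 fold change was 0.42 ± 0.14 and its adjusted p was 0.050, just above the threshold. Sdf2l1, a partner of BiP cochaperones, had a log2 fold change of 0.62 ± 0.22 (adjusted p = 0.0551). Neither had overlapping groups. Dnajc3 (p58IPK, a cochaperone of BiP), Creld2 and Dnajb11 (ERdj3, another such cochaperone) had log2 fold changes of 0.34, 0.40 and 0.26, and their groups overlapped.

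Of the disulfide enzymes, Ero1l (Ero1a) re-oxidises the isomerases. It was at 78.7, 70.5 and 72.4 CPM in IUGR libraries 1 to 3 at 10 weeks, against 51.9, 48.8 and 43.0 CPM in controls. The lowest IUGR library was clear of the highest control. Its log2 fold change was 0.62 ± 0.10 (1.54-fold, adjusted p = 0.00277), with the smallest standard error of the set. Pdia4 (ERp72), an isomerase, was at 263, 319 and 282 CPM in IUGR libraries against 213, 165 and 167 CPM in controls, again without overlap, a log2 fold change of 0.67 ± 0.15 (adjusted p = 0.00876). Pdia6, an isomerase that also binds the sensor IRE1, averaged 798 ± 50.4 CPM in IUGR islets and 480.0 ± 95.3 CPM in controls (SD, n = 3 each), a log2 fold change of 0.73 ± 0.20 (adjusted p = 0.0205).

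Ero1lb (Ero1b) is the oxidase enriched in the pancreas. It was steady in IUGR libraries, at 528, 522 and 509 CPM, against 513, 285 and 367 CPM in controls. Control library 1 lay within the IUGR range, and the log2 fold change of 0.42 ± 0.23 did not pass (adjusted p = 0.192). Pdia3, the isomerase that acts on glycoproteins with calnexin and calreticulin, had a log2 fold change of 0.20 ± 0.15. P4hb, the founding protein disulfide isomerase, was the only member of these 17 with a value below 0, at -0.29 ± 0.28 (adjusted p = 0.482). It measured 767, 859 and 934 CPM in IUGR libraries against 1275, 615 and 1233 CPM in controls, so the 2 controls with over 40% acinar counts were above the IUGR range and control library 2 was below it.

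Among the sensors and transcription factors, Xbp1, whose spliced product is the transcription factor of the IRE1 arm, measured 141, 151 and 127 CPM in IUGR libraries 1 to 3 at 10 weeks. The controls measured 369.9, 138 and 439.6 CPM. Control library 2, with an acinar share of 13.9%, lay inside the IUGR range, and the other controls were far above it. The log2 fold change was -1.18 ± 0.36 (adjusted p = 0.0347). Eif2ak3 (PERK), the kinase that slows translation, had the same arrangement, with 60.8, 65.4 and 59.0 CPM in IUGR libraries against 108, 61.8 and 147 CPM in controls and a log2 fold change of -0.78 ± 0.26 (adjusted p = 0.0477).

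The other sensors did not pass at 10 weeks. Ern1 (IRE1) had a log2 fold change of -0.31 ± 0.13 (adjusted p = 0.109), Atf6 of 0.11 ± 0.11, Atf4, the factor translated when PERK is active, of -0.19 ± 0.14, and Ddit3 (CHOP), its pro-apoptotic target, of 0.17 ± 0.13. Ddit3 was at 16.8, 18.2 and 16.3 CPM in IUGR libraries and at 15.5, 14.5 and 15.8 CPM in controls, a narrow separation without overlap. These counts are of whole transcripts and do not measure Xbp1 splicing, ATF6 cleavage or translation.

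The feedback regulators restrain the response. Trib3, a pseudokinase induced by ATF4 and CHOP, was at 1.89, 1.52 and 1.75 CPM in IUGR libraries 1 to 3 at 10 weeks and at 6.34, 3.22 and 8.29 CPM in controls. The lowest control was above the highest IUGR library. The fitted log2 fold change was -1.78 ± 0.29 (0.291-fold, adjusted p = 0.00269). Ppp1r15a (GADD34) directs the phosphatase that restarts translation. It was at 42.6, 40.4 and 46.5 CPM in IUGR libraries against 61.2, 114 and 114 CPM in controls, without overlap, a log2 fold change of -1.16 ± 0.30 (adjusted p = 0.0181). Here control library 1, with 43.0% acinar counts, was the control closest to the IUGR range. Wfs1 (wolframin), a membrane protein of the ER whose loss causes a diabetes syndrome in humans, had a log2 fold change of 0.17 ± 0.13 (adjusted p = 0.343).

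Of the degradation genes, Sel1l holds together the ubiquitin ligase complex that removes misfolded protein. It was at 128, 128 and 127 CPM in IUGR libraries 1 to 3 at 10 weeks, against 616, 154 and 642 CPM in controls. Control library 2 stood just above the IUGR libraries, and the other controls were several times higher. The log2 fold change of -1.88 ± 0.47 (adjusted p = 0.0154) was the lowest of the set. Its 2 listed transcripts had the same mean count. Herpud1, which gathers degradation factors at the membrane, was at 68.5, 73.3 and 77.0 CPM in IUGR libraries against 199, 84.2 and 186 CPM in controls, a log2 fold change of -1.10 ± 0.26 (adjusted p = 0.0122). Edem1, a mannosidase-like protein that marks glycoproteins for degradation, was at 26.1, 20.5 and 31.9 CPM in IUGR libraries against 64.6, 35.6 and 67.4 CPM in controls, a log2 fold change of -1.09 ± 0.27 (adjusted p = 0.014). A second Edem1 transcript had a log2 fold change of -1.12 (adjusted p = 0.0122).

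The other degradation genes did not pass at 10 weeks. Edem2, a relative of Edem1, had a log2 fold change of -0.15 ± 0.26. The derlins, membrane proteins through which substrates leave the ER, had 0.16 ± 0.12 (Derl1), 0.30 ± 0.16 (Derl2) and -0.25 ± 0.38 (Derl3). Derl3 was at 22.5, 20.5 and 12.2 CPM in IUGR libraries against 27.8, 12.6 and 25.2 CPM in controls, overlapping widely.

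**Figure D3:**
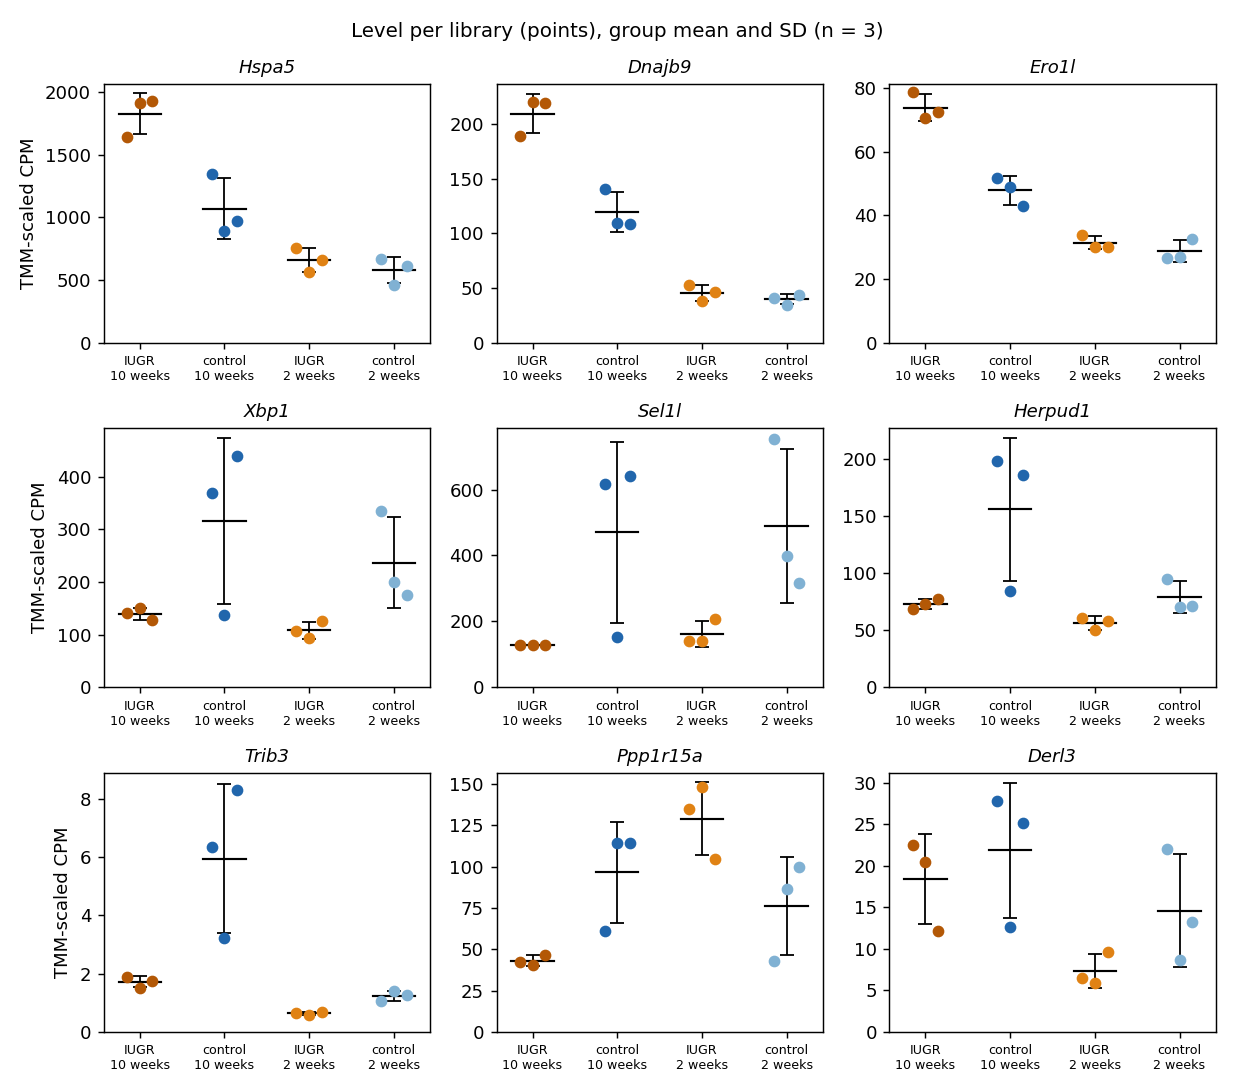
TMM-scaled CPM of 9 members in each library (points), with group means (lines) and SD (bars, n = 3). Hspa5, Dnajb9 and Ero1l in IUGR libraries at 10 weeks lie above all 3 controls, whereas control library 2 at 10 weeks lies near the IUGR libraries for Xbp1, Sel1l and Herpud1.

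The acinar share moved with these differences, and the members did not all follow it the same way. With control libraries 1 and 3 left out, both above 40% acinar counts, 11 members were higher and 2 lower in IUGR islets at 10 weeks, beside 7.87% and 13.2% of all transcripts in that fit. Higher were the same 9 with Canx and Dnajc3, and lower were Trib3 (log2 fold change -0.88, adjusted p = 0.0336) and Ppp1r15a (-1.38, adjusted p = 0.0254). Against the control library that remained, Xbp1 (0.04), Eif2ak3 (0.02), Herpud1 (-0.19), Sel1l (-0.25) and Edem1 (-0.42) no longer passed. Hspa5 had a log2 fold change of 1.06 in that comparison and Pdia6 of 1.02. Its single control is assumed to vary like the other groups and still held more acinar RNA than any IUGR library.

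With the mean log2 CPM of the acinar genes as a covariate, 1 member was higher (Derl3, log2 fold change 2.85, adjusted p = 0.0334) and none was lower by edgeR (1 at an unadjusted p under 0.05; DESeq2 was not run with this covariate for the group comparison). In that fit 0.178% and 2.47% of all transcripts were called higher and lower, so calls were few across the whole table. The covariate and IUGR cannot be told apart well at 10 weeks, since acinar levels of the groups did not overlap. They were 4.95 to 6.56 in IUGR libraries and 9.24 to 10.8 in controls, as mean log2 CPM without TMM factors. In that fit Hspa5 had a log2 fold change of 1.32 ± 0.57, Dnajb9 of 1.03 ± 0.44 and Pdia4 of 1.26 ± 0.38. Sel1l had 1.54 ± 1.06 and Xbp1 1.65 ± 0.70, the opposite sign to that without the covariate. The part of acinar RNA in the lower counts of Sel1l, Xbp1, Eif2ak3, Herpud1 and Edem1, and of the higher beta cell sum in those of the chaperones, was not tested further.

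Within groups, a model with the acinar level and the 4 groups measured how each gene followed acinar RNA. Derl3 was the 1 member that passed, with a log2 change of 0.70 ± 0.12 per unit of the acinar level (adjusted p = 0.0308). None passed with a slope below 0, and 0.646% and 0.178% of all transcripts passed above and below. Sel1l had a slope of 0.72 ± 0.21 that did not pass (adjusted p = 0.154), and neither did Xbp1 (0.61 ± 0.15, adjusted p = 0.0989) or Eif2ak3 (0.39 ± 0.12, adjusted p = 0.16). Hspa5 (0.12 ± 0.12), Dnajb9 (0.05 ± 0.09) and Ero1l (-0.04 ± 0.07) had slopes near 0, and Ppp1r15a had -0.33 ± 0.17. The slope was above 0 in 30 of 33 members, with a median of 0.17 against -0.01 over all transcripts. No member had an unadjusted p under 0.05 with a slope below 0, and DESeq2 called 0 there. The Derl3 call was kept in 4 of the 12 fits that left out 1 library. The count of members above 0 that passed was 8 without IUGR library 3 at 10 weeks, 1 without IUGR library 1 or 2 at 10 weeks or control library 2 at 2 weeks, and 0 without any of the other 8. Over all transcripts, in either direction, 171 of 20733 passed in the main fit and 769 of 21055 without IUGR library 3 at 10 weeks.

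**Figure D4:**
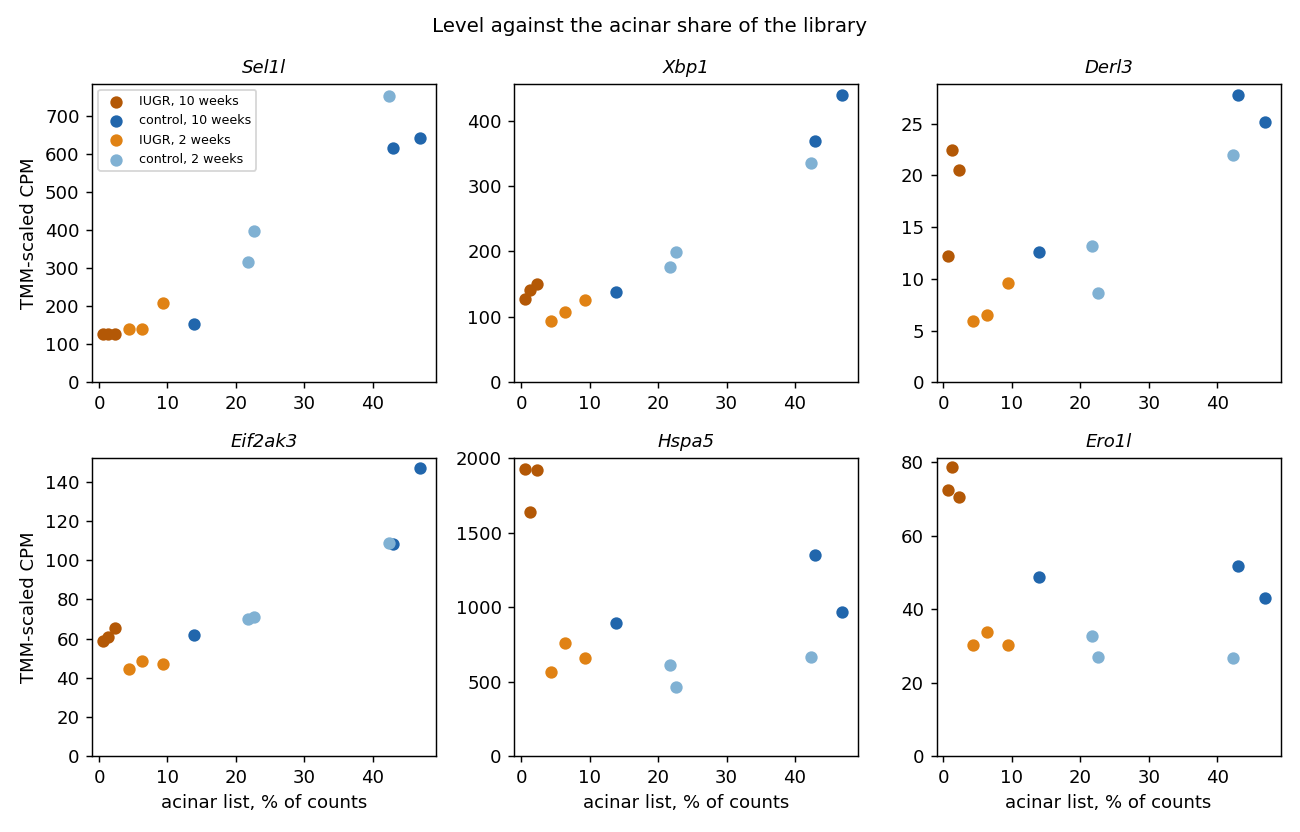
TMM-scaled CPM of 6 members against the percentage of each library's counts in the acinar list; each point is 1 library. Sel1l, Xbp1 and Eif2ak3 are highest in the 3 control libraries above 40%, while Hspa5 and Ero1l are highest in the IUGR libraries at 10 weeks, all below 3%.

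Single libraries decided many of the calls at 10 weeks. Calls held in each of the 6 fits with 1 library left out for Dnajb9, Pdia4, Ero1l and Trib3. Without control library 1, 2 or 3, the counts of members higher were 14, 4 and 3, and those lower were 5, 6 and 1. Without IUGR library 1, 2 or 3 they were 7, 5 and 4 higher and 4, 3 and 5 lower. Calls over all transcripts, in either direction, moved too, from 5776 of 20733 in the main fit. They were 7021 of 21113, 4368 of 20998 and 2971 of 21109 without control library 1, 2 or 3. Without IUGR library 1, 2 or 3 they were 3785 of 21063, 3929 of 21022 and 3979 of 21055. Without control library 3, the library richest in acinar RNA, the lower calls of Herpud1, Edem1, Sel1l, Xbp1, Eif2ak3 and Ppp1r15a were lost.

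Set against the promoter windows above, the 9 members with an ERSE had log2 fold changes between -1.18 (Xbp1) and 0.77 (Hspa5) at 10 weeks. In 7 of them the value was above 0, 3 rose and 1 fell. With the 3 members that carry ERSE-II added, 9 of 12 were above 0, 4 rose and 2 fell. Of the 14 matched and measured members with neither element, 6 were above 0, 2 rose and 5 fell. Syvn1, matched and also without either, has no value here. Xbp1 and Derl3 carry the element and were, with control libraries 1 and 3 in the fit, below 0. Over all transcripts 12.4% were called higher and 15.5% lower. Among the members that fell, several had smaller differences without control libraries 1 and 3, as given above. These were Xbp1 and Herpud1 with an ERSE or ERSE-II and Eif2ak3, Sel1l, Edem1 and Trib3 without. A link between the elements and the differences was not tested.

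At 2 weeks few members differed between IUGR and control islets. None was called higher by edgeR and 1 lower, Ern1, against 1.66% and 2.21% of all transcripts. At an unadjusted p under 0.05, 2 were higher. Ern1, the sensor kinase IRE1, was at 13.6, 14.4 and 14.3 CPM in IUGR libraries 1 to 3 and at 23.6, 20.9 and 17.9 CPM in controls. All IUGR libraries were below all controls. Its log2 fold change was -0.56 ± 0.13 (adjusted p = 0.0488), and the call was lost in 5 of 6 fits with 1 library left out, the exception being the fit without control library 3. DESeq2 called 6 members lower, adding Sel1l, Xbp1, Eif2ak3, Ero1lb and Trib3, and none higher, while it called 6.89% of all transcripts lower and 8.63% higher.

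Several genes that fell at 10 weeks also had lower levels at 2 weeks, without passing edgeR's test. Sel1l was at 141, 139.6 and 208 CPM in IUGR libraries and at 755, 398 and 317 CPM in controls, a log2 fold change of -1.59 ± 0.47 (adjusted p = 0.0714). Xbp1 had -1.12 ± 0.36 (adjusted p = 0.0877), Trib3 -0.98 ± 0.31 (adjusted p = 0.0824) and Eif2ak3 -0.83 ± 0.26 (adjusted p = 0.0826). In each of these 4 the groups did not overlap, a separation whose share over all transcripts was not counted. The acinar share at 2 weeks was likewise lower in every IUGR library than in every control. Chaperones were close to controls, with a median log2 fold change of 0.17 and values from -0.39 (Creld2) to 0.20 (Calr). The median over all members was -0.06, against 0.05 over all transcripts.

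Other members at 2 weeks had wider spreads. Ero1lb was at 85.1, 88.7 and 101 CPM in IUGR libraries against 199.98, 109.6 and 147 CPM in controls, without overlap, and had a log2 fold change of -0.73 ± 0.23 (adjusted p = 0.0831). Ppp1r15a was at 135, 148 and 105 CPM in IUGR libraries against 42.8, 86.2 and 99.5 CPM in controls, a log2 fold change of 0.76 ± 0.30 (adjusted p = 0.134). Its IUGR libraries were all above its controls, the reverse of 10 weeks. Ddit3 had 0.34 ± 0.13 (adjusted p = 0.129).

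The IUGR effect itself differed between the ages for 3 members. The log2 fold change at 10 weeks exceeded that at 2 weeks by 1.15 ± 0.33 for Ero1lb (adjusted p = 0.0384) and by 0.50 ± 0.15 for Ero1l (adjusted p = 0.043). For Ppp1r15a the difference was -1.92 ± 0.43 (adjusted p = 0.0146). Of 33 members 2 were called higher and 1 lower, beside 3.97% and 10.4% of all transcripts. The count of calls is thus not particular to the members. The Ppp1r15a call held in 12 of 12 fits with 1 library left out. The Ero1lb call held in 2 and the Ero1l call in 3. The count higher was 13 without control library 1 at 10 weeks, 4 without control library 2 at 2 weeks, 1 without control library 1 at 2 weeks and 0 without any of the other 9. The count lower was 3 without control library 2 at 10 weeks. In either direction, the test called 2973 of 20733 transcripts in the main fit. It called 4983 of 21113 without control library 1 at 10 weeks and 2742 of 21063 without control library 2 at 2 weeks. For the marker lists, the same test called 10 of 35 acinar, 7 of 8 stromal, 5 of 6 endothelial and 2 of 6 macrophage genes lower. Of 9 beta cell genes edgeR called none in either direction (2 were higher at an unadjusted p under 0.05, and DESeq2 called 0). Their part in these differences was not tested. The median difference was 0.43 over the members and 0.00 over all transcripts, and all 17 chaperones and disulfide enzymes had values above 0. For Hspa5 the difference was 0.58 ± 0.29 (adjusted p = 0.192), so that its call at 10 weeks and its lack of a call at 2 weeks were not shown to differ.

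More members passed for age than for IUGR. In IUGR islets, 25 of 33 members were higher and 1 lower at 10 than at 2 weeks, while 27.3% and 29.2% of all transcripts were called higher and lower. All 11 chaperones and all 6 disulfide enzymes rose. In controls 19 members were higher and none lower by edgeR, against 17.2% and 15.1% of all transcripts. DESeq2 also called none lower in controls, and no member had an unadjusted p under 0.05 in that direction. The rises in controls took in 9 of 11 chaperones and 4 of 6 disulfide enzymes. The median log2 fold change, 10 over 2 weeks, was 1.09 over the members in IUGR islets and 0.58 in controls, and 0.00 over all transcripts in each.

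**Figure D5:**
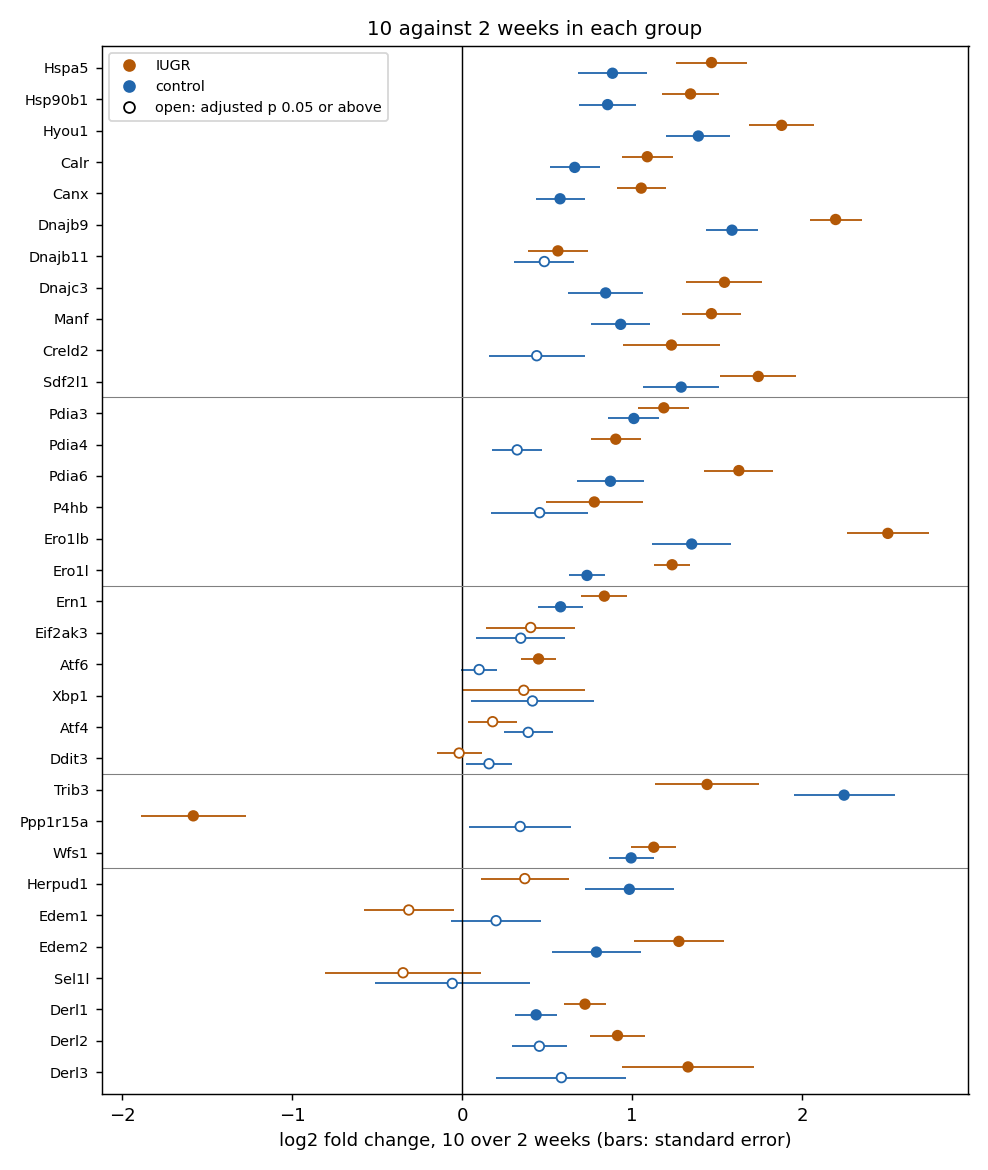
Log2 fold change of 10 over 2 weeks for each member in IUGR islets (brown) and in control islets (blue), with standard errors; filled points passed an adjusted p under 0.05. Ero1lb, at 2.51 in IUGR islets and 1.35 in controls, and Dnajb9, at 2.20 and 1.59, lie far to the right, and Ppp1r15a in IUGR islets, at -1.58, far to the left.

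Ero1lb had the highest log2 fold change with age in IUGR islets. It averaged 519.7 ± 9.83 CPM at 10 weeks and 91.5 ± 8.28 CPM at 2 weeks (SD, n = 3 each), a log2 fold change of 2.51 ± 0.24 (5.68-fold, adjusted p = 1.5e-05). In controls it averaged 388 ± 115 CPM at 10 weeks and 152 ± 45.4 CPM at 2 weeks (SD, n = 3 each), a log2 fold change of 1.35 ± 0.23 (adjusted p = 0.00187). Dnajb9 followed, with 209 ± 17.9 CPM at 10 weeks and 45.6 ± 7.24 CPM at 2 weeks in IUGR islets (SD, n = 3 each), a log2 fold change of 2.20 ± 0.15 (adjusted p = 2.86e-06). In controls it averaged 119.7 ± 18.4 CPM at 10 weeks and 39.8 ± 4.67 CPM at 2 weeks (SD, n = 3 each), a log2 fold change of 1.59 ± 0.15 (adjusted p = 0.000114).

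Other chaperones rose with age in both groups of rats. Hyou1 had log2 fold changes of 1.88 ± 0.19 in IUGR islets (adjusted p = 1.97e-05) and 1.39 ± 0.19 in controls (adjusted p = 0.000534). Hspa5 had 1.47 ± 0.21 in IUGR islets (adjusted p = 0.000148) and 0.88 ± 0.20 in controls (adjusted p = 0.00806). Sdf2l1, Manf, Hsp90b1, Dnajc3, Calr and Canx also passed in both, with log2 fold changes between 1.05 and 1.74 in IUGR islets and between 0.58 and 1.29 in controls. Creld2 and Dnajb11 passed in IUGR islets, at 1.23 and 0.56, and had 0.44 and 0.48 in controls without passing. Pdia4 likewise passed in IUGR islets at 0.90 and had 0.32 in controls. Pdia6, Ero1l and Pdia3 passed in both.

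Of the 6 sensors and factors, 2 were higher with age in IUGR islets and 1 in controls. These shares were near the 27.3% and 17.2% of all transcripts called higher. Ern1 rose by 0.84 ± 0.13 in IUGR islets (adjusted p = 0.000353) and by 0.58 ± 0.13 in controls (adjusted p = 0.0082), on the log2 scale. Atf6 rose in IUGR islets, by 0.45 ± 0.11 (adjusted p = 0.00384), and had 0.10 ± 0.11 in controls. Xbp1 (0.36 and 0.41), Eif2ak3 (0.40 and 0.34), Atf4 (0.18 and 0.39) and Ddit3 (-0.02 and 0.16) passed in neither, the first value being that of IUGR islets and the second that of controls. Wfs1 rose in both, by 1.13 ± 0.13 and 0.99 ± 0.13, in the same order.

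The feedback regulators Trib3 and Ppp1r15a parted with age. Trib3 averaged 1.72 ± 0.189 CPM at 10 weeks and 0.632 ± 0.0554 CPM at 2 weeks in IUGR islets (SD, n = 3 each), a log2 fold change of 1.44 ± 0.30 (adjusted p = 0.00204). In controls it averaged 5.95 ± 2.56 CPM at 10 weeks and 1.24 ± 0.167 CPM at 2 weeks (SD, n = 3 each), a log2 fold change of 2.25 ± 0.30 (adjusted p = 0.000474). Ppp1r15a averaged 43.1 ± 3.09 CPM at 10 weeks and 129 ± 22.3 CPM at 2 weeks in IUGR islets (SD, n = 3 each), the only member that fell with age in either group with all libraries in the fit (log2 fold change -1.58 ± 0.31, adjusted p = 0.00121). In controls it averaged 96.6 ± 30.6 CPM at 10 weeks and 76.2 ± 29.7 CPM at 2 weeks (SD, n = 3 each), a log2 fold change of 0.34 ± 0.30 (adjusted p = 0.399).

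Of the degradation genes, Edem2, Derl1, Derl2 and Derl3 rose with age in IUGR islets, by 1.28, 0.72, 0.91 and 1.33 on the log2 scale. In controls Herpud1 (0.98), Edem2 (0.79) and Derl1 (0.44) rose. Sel1l, at -0.35 ± 0.46 in IUGR islets and -0.06 ± 0.46 in controls, and Edem1, at -0.31 ± 0.27 and 0.20 ± 0.26, passed in neither. Without control libraries 1 and 3 at 10 weeks, 9 members were higher with age in controls and 1 was lower, Sel1l, at -1.67 (adjusted p = 0.0358), beside 10.2% and 6.75% of all transcripts in that fit. The summed beta cell genes also differed with age, between 176369 and 190868 CPM at 10 weeks and between 33888 and 38314 CPM at 2 weeks in IUGR islets. In controls they were between 94066 and 141581 CPM at 10 weeks and between 21929 and 38490 CPM at 2 weeks. The summed level of 8 stromal genes was 319 to 406 CPM in IUGR libraries at 10 weeks and 9062 to 10648 CPM at 2 weeks. All 9 beta cell genes were higher and all 8 stromal genes lower with age in IUGR islets, as were 23 of 35 acinar, 5 of 6 endothelial and 1 of 6 macrophage genes. In controls all 9 beta cell genes, 5 of 35 acinar, 4 of 6 macrophage and 1 of 6 endothelial genes were higher and 6 of 8 stromal genes lower. Of all transcripts 27.3% were called higher and 29.2% lower with age in IUGR islets, and 17.2% and 15.1% in controls. The part of these cell types in the age differences was not tested. Both age comparisons share libraries with the comparisons of IUGR and control, so their values for a gene are not independent.

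Genes around the set were followed in 7 lists with 145 genes found, of which 143 were tested. In IUGR islets against controls at 10 weeks, where 12.4% of all transcripts were called higher and 15.5% lower, 10 of 18 N-glycosylation genes were higher and none lower, with a median log2 fold change of 0.43. For this list and the translocation genes, edgeR gave no gene with an unadjusted p under 0.05 in the lower direction, and DESeq2 called 0. Examples were Alg2, a mannosyltransferase of the glycan precursor (0.73 ± 0.15, adjusted p = 0.00616), Tusc3, a subunit of the oligosaccharyltransferase (0.71 ± 0.15, adjusted p = 0.00799), and Dpagt1, which starts the precursor (0.32 ± 0.08, adjusted p = 0.012). Of 21 translocation and signal peptide genes 3 were higher (Sec11a, Srp14 and Srp9) and none lower, the share called higher being near that of all transcripts. Of 21 other degradation genes 5 were higher, Ufd1l, Erlec1 and Selk among them, and none lower by edgeR (2 at an unadjusted p under 0.05, and 1 by DESeq2). ER exit and retrieval genes had 4 higher and 1 lower of 21. The coat protein Sec23a rose by 0.38 ± 0.09 (adjusted p = 0.00959), and the retrieval receptor Kdelr3 fell, with -1.43 ± 0.23 (adjusted p = 0.00251).

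Of 26 targets of ATF4, none was higher by edgeR (1 at an unadjusted p under 0.05, 0 by DESeq2) and 13 were lower. Their median log2 fold change was -0.64. Of all transcripts 12.4% were called higher and 15.5% lower. Nupr1, a stress-induced regulator, was at 11.4, 10.3 and 14.4 CPM in IUGR libraries against 186, 123 and 423 CPM in controls (log2 fold change -4.34 ± 0.45, adjusted p = 0.000541). Ddit4 (REDD1), an inhibitor of mTORC1, was at 6.82, 9.64 and 6.82 CPM in IUGR libraries against 29.8, 19.6 and 23.1 CPM in controls (-1.64 ± 0.17, adjusted p = 0.000579). Cth, which makes cysteine, was at 1.197, 1.52 and 0.667 CPM in IUGR libraries against 49.6, 11.5 and 73.4 CPM in controls (-5.31 ± 0.73, adjusted p = 0.00146). Cth also followed the acinar level within groups (slope 1.33 ± 0.14, adjusted p = 0.00475).

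Of 15 other stress sensors and regulators, 1 was higher and 5 lower, among them the ER-bound transcription factor Creb3l1 (-1.15 ± 0.24, adjusted p = 0.00656) and Ppp1r15b, the constitutive relative of Ppp1r15a (-0.64 ± 0.18, adjusted p = 0.0217). Of 21 other folding enzymes, 4 were higher and 4 lower. Of all transcripts 12.4% were called higher and 15.5% lower, and the folding enzymes were not far from these shares. Serpinh1, the collagen chaperone, was at 48.0, 39.0 and 57.2 CPM in IUGR libraries against 76.9, 102 and 102 CPM in controls (-0.96 ± 0.15, adjusted p = 0.00197). The summed stromal genes were 319 to 406 CPM in these IUGR libraries and 790.3 to 1661 CPM in controls. Pdia2, the pancreatic isomerase, was at 17.4, 25.1 and 8.23 CPM in IUGR libraries against 689, 104 and 792 CPM in controls (-4.96 ± 0.84, adjusted p = 0.00297), and it followed the acinar level within groups with a slope of 1.48 ± 0.16 (adjusted p = 0.00506). The part of acinar and stromal RNA in these lists was not tested.

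At 2 weeks the 7 lists together had 2 genes higher (Fkbp14 and Sec23a) and 3 lower (Nupr1, Gpt2 and Eif2ak4) of 143, shares near the 1.66% and 2.21% of all transcripts. With age in IUGR islets 90 were higher and 19 lower of 143, beside 27.3% and 29.2% of all transcripts. In controls 62 were higher and 7 lower, beside 17.2% and 15.1%. In IUGR islets 18 of 21 translocation genes, 15 of 18 N-glycosylation genes, 16 of 21 other degradation genes and 13 of 21 ER exit genes were higher at 10 weeks. The ATF4 targets in IUGR islets had 10 higher and 7 lower with age, and in controls 13 higher and none lower by edgeR, by DESeq2 or at an unadjusted p under 0.05.

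Some members overlap another gene in the RefSeq annotation, such as Ddit3 with Mars1, Creld2 with Alg12, Derl3 with Smarcb1 and Herpud1 with LOC102553339. Ero1l likewise overlaps Rps10l6, Pdia3 overlaps Catsper2 and Atf6 overlaps LOC100911728. The strand setting of the counting is not given in the sources used here, so reads of such a pair may have been counted for either gene.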

How the data were processed

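RNA-seq of 12 islet libraries was used. The deposited values are raw counts, whole numbers per transcript with Ensembl rat identifiers. Per the submitters' processing notes, bedtools and TopHat2 2.0.9 and the builds rn5 and mm9 had a part, with no roles given. How reads were counted, by which strand and annotation, is not given in the sources used here.

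They were tested with edgeR 4.0.16 (R 4.3.3) after filterByExpr and TMM scaling, in 1 robust quasi-likelihood fit of all 4 groups (8 residual degrees of freedom). Benjamini-Hochberg adjustment ran over 20733 transcripts of all 30309. An adjusted p under 0.05 passed. A standard error is the size of the log2 fold change divided by the root of its F statistic. The script was tested on simulated data. All members were named. Of the pathway lists, up to 3 genes per list and comparison with the smallest p could be named. The members and lists were chosen with earlier results of these data known. Replicates differed beyond counting noise (lowest chi-square per degree of freedom 31.7), so all were counted.

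The settings varied were the tool (DESeq2 1.42.0), RLE factors, the low-count filter (only 1 count in any library asked), a replicate block, a covariate (the acinar level), the acinar list left out, 1 transcript per symbol, only the 6 libraries of a comparison, each library left out, and 10-week control libraries 1 and 3 left out. Promoter sequences are from RefSeq (GRCr8).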

Additional observations from a re-analysis of the deposited data

Results flagged for a closer look

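The effect of IUGR differed between the ages for 3 members, by the test of the difference itself (edgeR, adjusted over all transcripts). The log2 fold change of IUGR over control at 10 weeks minus that at 2 weeks was 1.15 for Ero1lb (adjusted p = 0.0384). For Ero1l it was 0.50 (adjusted p = 0.043). For Ppp1r15a it was -1.92 (adjusted p = 0.0146). Of 33 members 2 were called higher and 1 lower, beside 3.97% and 10.4% of all transcripts. The count of calls is thus not particular to the members. Of these 3 calls, only that of Ppp1r15a held in each of the 12 fits with 1 library left out.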

How the results depend on the processing

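Members called higher and lower are counted for each comparison. Calls over all transcripts changed between settings too. For IUGR at 2 weeks they went from 804 to 3219 with DESeq2, and at 10 weeks from 5776 to 549 with the covariate. IUGR at 2 weeks (0 higher, 1 lower): lower 6 with DESeq2, and 0 without the filter, with the acinar covariate and in the 6 libraries alone. With 1 library left out, higher was 0 throughout and lower 0 to 2. IUGR at 10 weeks (9 and 7): 1 and 0 with the covariate, 11 and 2 without control libraries 1 and 3, and 3 to 14 and 1 to 6 with 1 library left out. Difference between ages (2 and 1): higher 5 with DESeq2, 1 with RLE factors, without the filter and with the replicate block, 7 with the covariate. With 1 library left out they were 0 to 13 and 1 to 3. Age in controls (19 and 0): higher 11 in the 6 libraries alone. Without control libraries 1 and 3 at 10 weeks they were 9 and 1, and with 1 library left out 14 to 25 and 0. Age in IUGR (25 and 1): 22 to 24 and 1 with 1 library left out. All 26 calls were kept in the other settings run. Slope on the acinar level (1 and 0): higher 4 with DESeq2 and 0 with the replicate block. With 1 library left out they were 0 to 8 and 0. Sign changes at 10 weeks are listed only for members that passed in the main fit or in the fit compared with it. Among these the covariate reversed the sign of Eif2ak3 (1.01), Xbp1 (1.65), Herpud1 (0.47), Sel1l (1.54) and Derl3 (2.85). Without control libraries 1 and 3 Eif2ak3 (0.020) and Xbp1 (0.039) changed sign among them. Members that passed in neither fit may have changed sign too. The cause was not tested. The replicate block gave 10 higher and 6 lower for IUGR at 10 weeks. Libraries with the same number deviated together in some pairs (correlations from -0.14 to 0.48, 8 of 18 over 0.1), and 8 of 12 libraries correlated best with their own number. Not every pair was over 0.1, so the numbers were not taken to pair the samples. With 3 libraries per group and acinar levels that do not overlap between IUGR and control, acinar RNA and IUGR could not be told apart. Trib3 had the fewest counts, 37 in its lowest library.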
